A study of Mus musculus with 20 samples.

Results

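The TNF superfamily ligands and receptors were followed in eosinophils sorted from mouse lung. The 36 genes, 17 ligands and 19 receptors, are a list of names with no threshold on a measured value, and each matched 1 of the 49315 gene identifiers in the count tables. The 20 samples of the study fall into 4 labelled groups of 5: resting lung, day 7 and day 30 after transplantation under costimulatory blockade (CSB), and day 7 after transplantation without it. Only the resting and the day 7 no CSB groups, 10 libraries, had count columns that could be matched to a label, and the groups under blockade were not analysed here.

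All sorted cells were labelled strain C57BL/6. Resting eosinophils came from untreated mice, and graft eosinophils from C57BL/6 recipients of a Balb/c lung, 7 days after transplantation. The absence of CSB in the graft group rests on the sample titles, since its treatment label names a transplant and day 7 with no further agent and the shared protocol text describes CSB in general. The labels call the eosinophils that infiltrate the graft recipient cells. Each library pooled the lungs of 3 to 5 mice, so that the spread given here is that between pools, and no value belongs to 1 animal.

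Ligands of this family are mostly type II membrane proteins that assemble as trimers, and many are also shed as soluble cytokines. They cluster receptors that fall into 2 broad kinds: those with a cytoplasmic death domain, which can engage caspases, and those that recruit TRAF adaptors and activate the NF-kappaB and MAP kinase pathways. In immune tissue the family is best known for inflammation (TNF), for costimulation of T cells (OX40, 4-1BB, GITR, CD27, CD40), for lymphoid tissue structure (the lymphotoxins), for B cell survival (BAFF and APRIL) and for cell death (Fas ligand and TRAIL). Many costimulatory receptors are carried by activated T cells, with their ligands on antigen-presenting cells.

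The sorted cells were checked against 14 eosinophil markers, and all 14 were detected. Their summed level was 2317 to 3919 CPM (counts scaled to library size) in the resting libraries and 1423 to 4274 CPM in the graft libraries, and 2 of the 14 were higher and 6 lower in the graft. Among them Ccr3, the eotaxin receptor, ranged from 159 to 472 CPM and from 171 to 811 CPM, whereas Epx, eosinophil peroxidase, ranged from 22.5 to 171 CPM and from 0.549 to 9.62 CPM. Markers of other cells were present in every library. The largest sum among the lists, in all libraries but graft library 2, was that of neutrophils, 9366 to 12221 CPM in resting and 5328 to 10784 CPM in graft libraries, above every eosinophil sum (3 of 11 lower; S100a8, which encodes a calcium-binding protein abundant in neutrophils, ranged from 805 to 1953 CPM and from 430 to 3116 CPM). Within that neutrophil sum Retnlg alone ranged from 2423 to 7288 CPM and from 1385 to 7127 CPM. Ly6g ranged from 3.63 to 7.84 CPM and from 2.20 to 6.20 CPM. Such sums depend on the genes listed, so they do not rank the cell types by amount. The summed T cell markers were 142 to 198 CPM in resting and 460 to 1127 CPM in graft libraries (14 of 14 higher), regulatory T cell markers 20.8 to 46.5 and 88.0 to 191 CPM (3 of 4 higher), natural killer cell markers 79.1 to 116 and 238 to 538 CPM (5 of 8 higher), and monocyte and macrophage markers 2045 to 2799 and 4917 to 10018 CPM (11 of 14 higher). Endothelial markers went the other way, from 2690 to 3676 CPM in resting to 82.1 to 164 CPM in graft libraries (10 of 10 lower), and epithelial markers from 3182 to 4548 CPM to 40.8 to 496 CPM (9 of 10 lower). Alveolar macrophage markers were 1334 to 2105 and 546 to 1297 CPM (6 of 8 lower, 1 higher), and dendritic cell markers 165 to 233 and 241 to 317 CPM (5 of 9 higher, 1 lower). No marker of any of these lists was at 0 in all libraries. In such bulk samples more cells of a type and more RNA per cell cannot be told apart, and the part of these other cells in the results that follow was not tested.

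Library totals were 6666577 to 12883144 counts in the resting and 15695074 to 26683784 in the graft group. The groups were deposited in separate tables, and any batch that goes with the table cannot be told apart from the graft. At a Benjamini-Hochberg adjusted p under 0.05 (edgeR, quasi-likelihood fit), the graft group exceeded the resting group for 3843 and fell below it for 3859 of the 16500 genes kept. Scaling by library totals alone in place of TMM factors shifted the median of all genes by -0.19 on the log2 scale and turned this split into 2495 higher and 4883 lower.

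Of the 36 genes, 34 had counts enough for the test: 16 were higher in the graft, 4 lower and 14 were not called. The higher genes make up 47.1% of those tested, against 23.3% of all genes, and the lower genes 11.8%, against 23.4%. In either direction 58.8% were called, against 46.7% of all genes. The median log2 fold change was 0.59 for the family and 0.05 for all genes. Of the 15 ligands tested 7 were higher and 2 lower (median 0.65), and of the 19 receptors 9 were higher and 2 lower (median 0.52). The 5 graft libraries all lay above the 5 resting ones for 14 of the 34 genes (41.2%, against 16.4% of all genes) and all below for 2 (5.88%, against 18.7%); in either direction the background was 35.1%. A gene that passes the filter on low counts only through the graft libraries had to differ, as holds for Tnfsf4. Tnfsf11 also needed graft libraries to pass. These shares therefore describe the list and do not test it. The count was 15 higher and 5 lower under library totals alone, and 14 higher and 5 lower without the graft libraries 1 and 2, which stand apart below.

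**Figure D1:**
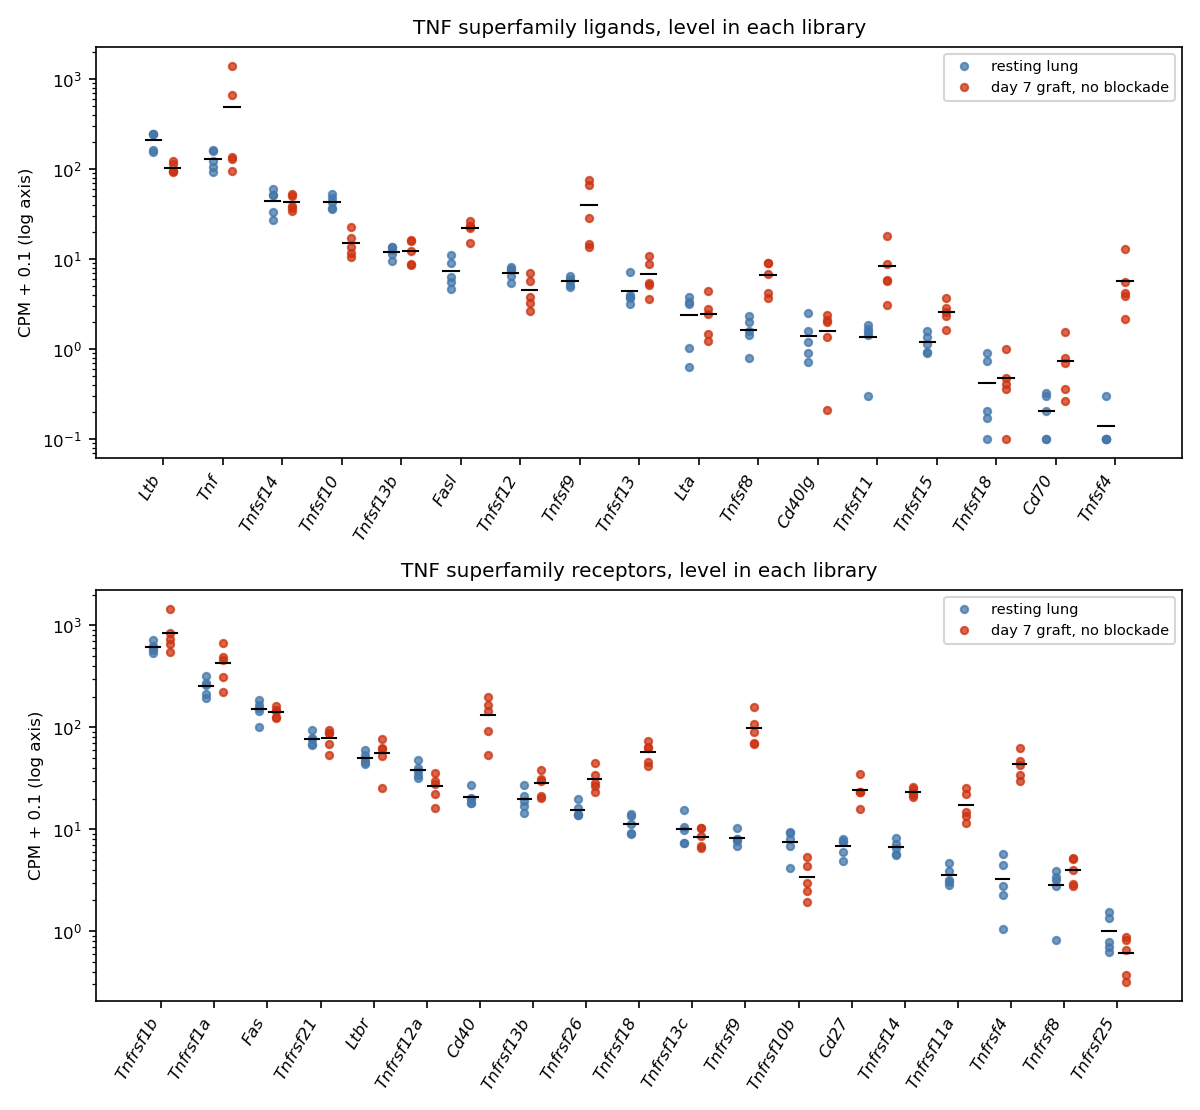
Level of each ligand (top) and receptor (bottom) in every library, as CPM + 0.1 on a log axis; blue points are the 5 resting and red points the 5 graft libraries, black lines the group means plus 0.1, and genes are ordered by resting level. Tnfrsf4, Tnfrsf9, Tnfrsf18 and Cd40 are separated in full, while 3 of the 5 graft points of Tnf lie among the resting ones.

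The most compact part of the family is the TNF locus on chromosome 17 (mm10), where 3 ligand genes lie within a few kilobases of each other: Ltb at chr17:35194439-35196320 on the plus strand, Tnf at chr17:35199381-35202007 and Lta at chr17:35203165-35205351, both on the minus strand. Gaps of 3060 and 1157 bases separate them. The 3 neighbours had 3 different outcomes in the graft (Ltb lower, Tnf higher, Lta not called). Their upstream sequences are shown for that reason, from RefSeq (GRCm38.p6), 5′ to 3′ on the strand of the gene, each cut to the stretch without annotated exons (for Ltb bases -250 to -69 from the start site, for the others -250 to -1). Capitals mark matches to any of 4 motifs searched on both strands: a kappaB motif, the interferon-stimulated response element (GAAA, any 2 bases, GAAA), the gamma-activated site TTCNNNGAA and the AP-1 site TGANTCA.

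Ltb, chr17:35194257-35194438, plus strand: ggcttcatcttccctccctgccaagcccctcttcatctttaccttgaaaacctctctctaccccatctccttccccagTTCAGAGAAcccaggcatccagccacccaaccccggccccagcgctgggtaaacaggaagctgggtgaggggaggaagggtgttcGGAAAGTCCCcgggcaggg
Tnf, chr17:35202008-35202257, minus strand: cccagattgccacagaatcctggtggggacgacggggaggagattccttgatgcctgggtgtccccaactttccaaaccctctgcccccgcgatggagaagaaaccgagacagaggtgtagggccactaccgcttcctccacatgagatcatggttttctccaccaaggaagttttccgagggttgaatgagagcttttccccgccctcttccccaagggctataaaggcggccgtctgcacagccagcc
Lta, chr17:35205352-35205601, minus strand: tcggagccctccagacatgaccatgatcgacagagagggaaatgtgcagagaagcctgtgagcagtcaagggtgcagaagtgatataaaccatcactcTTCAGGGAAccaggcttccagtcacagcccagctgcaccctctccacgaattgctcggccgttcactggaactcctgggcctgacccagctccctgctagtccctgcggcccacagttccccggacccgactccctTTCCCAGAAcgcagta

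The Ltb stretch holds a kappaB match (GGAAAGTCCC, bases -87 to -78) and a gamma-activated site (TTCAGAGAA, bases -172 to -164). The Lta stretch holds 2 gamma-activated sites (TTCAGGGAA, bases -152 to -144, and TTCCCAGAA, bases -16 to -8), and the Tnf stretch none of the letters searched. A match is a run of letters and not a bound site, and the absence of one in this window says nothing about the factor.

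Tnf, the cytokine that gives the family its name, was measured at 107, 165, 124, 92.0 and 161 CPM in the 5 resting libraries and at 1407, 660.5, 135, 94.0 and 130.4 CPM in the 5 graft libraries. Graft libraries 1 and 2 stood above every resting library, and graft libraries 3, 4 and 5 lay within the resting range. The mean went from 129.7 ± 32.3 to 485 ± 566 CPM (SD, n = 5 each), with a log2 fold change of 1.90 ± 0.66 (SE; edgeR adjusted p = 0.0306). The coefficient of variation over pools was 24.9% in resting and 117% in graft libraries. Without graft library 1 the log2 fold change was 0.99 (adjusted p = 0.121), without graft library 2 it was 1.78 (adjusted p = 0.0518), and without both it was -0.09 (adjusted p = 0.736). Leaving out resting library 1, 3 or 4 also ended the call (adjusted p = 0.0641, 0.0588 and 0.0665), as did testing with no filter on low counts (2.01, adjusted p = 0.111). Those 2 pools also had the lowest summed eosinophil markers of the group, 1423 and 1555 CPM. Summed monocyte and macrophage markers were 5883, 10018, 6660, 4917 and 5045 CPM in graft libraries 1 to 5. Summed neutrophil markers were 10784, 5328, 6818, 8603 and 8884 CPM in the same order, highest in library 1, where Tnf was highest, and lowest in library 2. The part of those cells in the Tnf level was not tested.

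Ltb, the membrane-bound lymphotoxin beta, was measured at 164, 248, 247, 154 and 247 CPM in resting and at 113, 92.0, 95.1, 94.6 and 123 CPM in graft libraries. All graft libraries lay below all resting ones. The mean was 2.04 times lower (log2 fold change -1.03 ± 0.16, edgeR adjusted p = 0.000151). Lta, which forms a soluble trimer that binds the TNF receptors, was low in both groups, at 2.30 ± 1.45 and 2.38 ± 1.26 CPM, and was not called (log2 fold change 0.01 ± 0.49, adjusted p = 0.985). The within-library log2 ratio of Tnf to Lta counts was 6.02 ± 0.96 in resting and 6.97 ± 1.93 in graft libraries (exact two-sided permutation test, p = 0.373, adjusted p = 0.373 over 5 ratios).

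Both TNF receptors were among the most abundant transcripts of the family. Tnfrsf1a, the broadly expressed receptor with a death domain, was measured at 273, 259, 196, 319.5 and 210.4 CPM in resting and 668, 492, 461, 309.8 and 224 CPM in graft libraries. The first 3 graft libraries exceeded all resting ones and the other two lay within the resting range. The mean was 1.71 times higher (log2 fold change 0.78 ± 0.25, edgeR adjusted p = 0.0226). The call was lost under library totals alone (0.56, adjusted p = 0.0786), without resting library 3 or 5 (adjusted p = 0.0561 and 0.0529), without graft library 1 (0.58, adjusted p = 0.0523) and without graft libraries 1 and 2 (0.42, adjusted p = 0.137). Tnfrsf1b, the second TNF receptor, found mainly on leukocytes, was measured at 612 ± 73.4 and 849 ± 358 CPM. Graft library 1 was the highest at 1459 CPM, and the gene was not called (log2 fold change 0.47 ± 0.23, adjusted p = 0.105), although it was without graft library 5 (0.61, adjusted p = 0.028) and with no filter on low counts (0.59, adjusted p = 6.75e-05). The log2 ratio of Tnfrsf1b to Tnfrsf1a moved by -0.31, from 1.296 ± 0.26 to 0.99 ± 0.25 (exact two-sided permutation test, p = 0.111, adjusted p = 0.139 over 5 ratios).

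The 4 largest log2 fold changes were those of the OX40 and 4-1BB ligands and receptors. Tnfrsf4 (OX40), a receptor of activated T cells, was measured at 5.62, 2.19, 2.69, 0.947 and 4.37 CPM in resting and at 42.8, 29.8, 46.4, 33.9 and 62.9 CPM in graft libraries. The groups did not overlap, and the fitted level was 13.3 times higher (log2 fold change 3.73 ± 0.35, edgeR adjusted p = 1.86e-06). Its ligand Tnfsf4 (OX40L) was seen with 2 counts in all 5 resting libraries together, both in library 2, and with 525 counts in the graft group. It was at 3.84, 2.09, 4.08, 5.40 and 12.8 CPM in the 5 graft libraries. The ratio of the summed count rates was 124, with an exact 95% interval of 34.0 to 1023 that covers counting error only, and the gene is counted among the called ones. Since it passed the filter only through the graft libraries, its call is no independent evidence. Its fitted log2 fold change of 6.86 ± 0.82 depends on the prior count and was 9.41 without resting library 2, the only resting library with a count.

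Tnfrsf9 (4-1BB), another costimulatory receptor of activated lymphocytes, was measured at 10.2, 6.76, 7.65, 7.98 and 8.0 CPM in resting and 90.7, 68.0, 107, 70.5 and 157 CPM in graft libraries. Every graft library was far above every resting one, 12.2 times in the fit (log2 fold change 3.61 ± 0.24, edgeR adjusted p = 6.72e-08). Tnfsf9 (4-1BBL), its ligand on antigen-presenting cells, was measured at 5.09, 4.77, 5.68, 6.36 and 5.85 CPM and at 66.4, 75.2, 28.5, 13.6 and 14.5 CPM. The groups did not overlap either (log2 fold change 2.84 ± 0.47, adjusted p = 0.000285). Without graft libraries 1 and 2 the log2 fold change was 1.79 (adjusted p = 5.66e-05), 3.46 times in place of 7.14 times. Ligand and receptor differed in which graft pool was highest: Tnfsf9 peaked in pool 2 with pool 1 next, and Tnfrsf9 in pool 5. Part of the Tnfsf9 exons, 14.9%, overlaps another annotated gene (Gm11110), so some of its reads may have been assigned otherwise.

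Tnfrsf18 (GITR), carried by regulatory and activated T cells, went from 11.3 ± 2.38 to 57.2 ± 13.2 CPM, with resting libraries at 9.01, 14.0, 8.89, 11.1 and 13.3 CPM and graft libraries at 62.5, 41.7, 45.4, 63.3 and 72.9 CPM. The groups did not overlap (log2 fold change 2.34 ± 0.19, edgeR adjusted p = 3.54e-07). Its exons overlap the antisense gene Gm16008 over 27.2% of their length, and no strand setting is given in the sources used here. Tnfrsf18 and Tnfrsf4 are neighbours on chromosome 4, 9551 bases apart. The GITR ligand gene Tnfsf18 gave 14 counts in the resting and 34 in the graft group, a rate ratio of 1.14 (exact 95% interval 0.597 to 2.31), and was too low for the test.

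Cd27, a receptor of T cells and memory B cells, was measured at 5.83, 4.77, 7.34, 7.57 and 8.0 CPM in resting and 23.1, 15.8, 23.3, 23.0 and 34.4 CPM in graft libraries. The groups did not overlap (log2 fold change 1.83 ± 0.21, edgeR adjusted p = 1.01e-05). Its ligand gene Cd70 gave 6 counts against 62, a rate ratio of 4.86 (exact 95% interval 2.11 to 13.8), and was left out of the test by the filter on low counts. With no such filter Cd70 had a log2 fold change of 2.501 ± 0.76 (adjusted p = 0.00559).

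Cd40, the receptor through which T cells license antigen-presenting cells, was measured at 20.1, 19.7, 18.2, 27.0 and 17.9 CPM in resting and 145, 197, 166, 91.6 and 53.7 CPM in graft libraries. The groups did not overlap, although the graft libraries spanned a wide range with pool 5 lowest (log2 fold change 2.67 ± 0.30, edgeR adjusted p = 1.06e-05). Cd40lg, its ligand on activated T cells, was low in both groups at 1.29 ± 0.72 and 1.51 ± 0.87 CPM and was not called (log2 fold change 0.20 ± 0.56, adjusted p = 0.796).

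Tnfrsf14 (HVEM), which binds LIGHT and also the checkpoint receptor BTLA, was measured at 5.51, 8.15, 5.58, 7.03 and 6.45 CPM in resting and at 20.8, 22.5, 24.5, 25.6 and 21.3 CPM in graft libraries. The graft values lay close together, with a coefficient of variation of 8.97%, the lowest of the family in that group, and the groups did not overlap (log2 fold change 1.81 ± 0.15, edgeR adjusted p = 3.44e-07). Its ligand Tnfsf14 (LIGHT) was at 44.4 ± 13.7 and 42.7 ± 8.76 CPM and was not called (log2 fold change -0.06 ± 0.21, adjusted p = 0.839). Ltbr, the lymphotoxin beta receptor and the other receptor of LIGHT, was at 49.9 ± 6.42 and 55.7 ± 19.1 CPM and was not called (log2 fold change 0.16 ± 0.23, adjusted p = 0.601), although it was without graft library 5 (0.35, adjusted p = 0.0416). Within libraries the log2 ratio of Tnfrsf14 to Ltbr went from -2.92 ± 0.29 to -1.19 ± 0.59. This difference of 1.73 separated all graft from all resting libraries (exact two-sided permutation test, p = 0.00794, the smallest that 5 against 5 can give, adjusted p = 0.0397 over 5 ratios).

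2 further ligands of lymphocyte receptors were higher without a called receptor. Tnfsf8 (CD30L) was at 1.53 ± 0.58 CPM in resting and 6.51 ± 2.58 CPM in graft libraries, with no overlap (log2 fold change 2.10 ± 0.35, edgeR adjusted p = 0.000247), while its receptor Tnfrsf8 (CD30) was at 2.71 ± 1.18 and 3.92 ± 1.16 CPM (log2 fold change 0.52 ± 0.35, adjusted p = 0.248). Tnfsf15 (TL1A) was at 1.09 ± 0.29 and 2.51 ± 0.75 CPM (log2 fold change 1.20 ± 0.30, adjusted p = 0.00542). Its groups only just missed overlapping, with the highest resting library at 1.49 CPM and the lowest graft library at 1.52 CPM. Its receptor Tnfrsf25 (DR3) reached at most 1.45 CPM in resting and 0.784 CPM in graft libraries and was not called (log2 fold change -0.83 ± 0.45, adjusted p = 0.151).

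The RANK axis, known from osteoclasts and from the contact of T cells with dendritic cells, was higher at both ends. Tnfsf11 (RANKL) was measured at 1.59, 0.199, 1.45, 1.76 and 1.33 CPM in resting and 5.67, 3.02, 8.63, 5.73 and 18.0 CPM in graft libraries. Tnfrsf11a (RANK) was measured at 2.76, 3.08, 3.82, 4.60 and 2.96 CPM and at 14.6, 25.3, 22.2, 13.2 and 11.5 CPM. Neither gene's groups overlapped (log2 fold change 2.71 ± 0.53, edgeR adjusted p = 0.000923, and 2.34 ± 0.25, adjusted p = 5.31e-06). In resting library 2 Tnfsf11 had 2 counts, too few for the filter on low counts. The gene passed that filter only with graft libraries counted, so its call is not independent of the filter. The pool with the highest Tnfsf11, pool 5, had the lowest Tnfrsf11a. Tnfrsf11b (osteoprotegerin), the soluble decoy for RANKL and not 1 of the 36, was at 3.17 ± 0.88 and 1.43 ± 0.69 CPM (log2 fold change -1.14 ± 0.40, adjusted p = 0.0325), a call lost under 6 of 19 alternative settings.

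**Figure D2:**
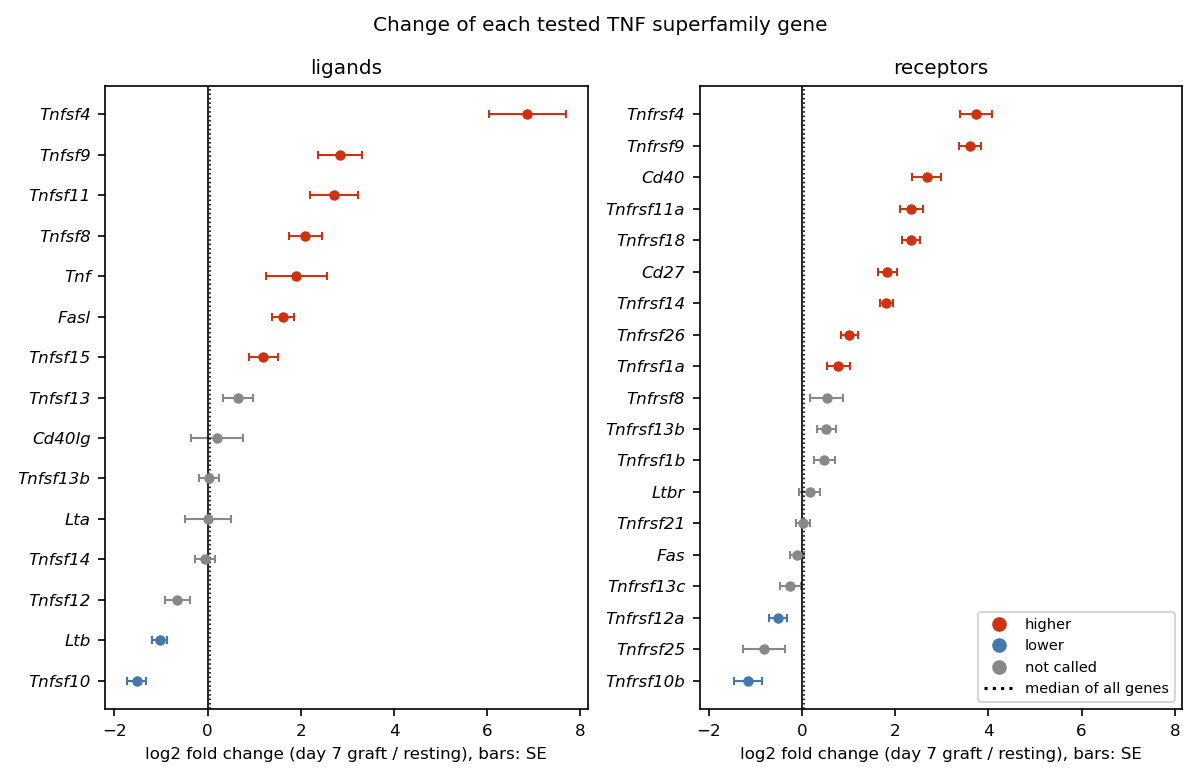
Log2 fold change, graft over resting, of the 15 ligands (left) and 19 receptors (right) tested; bars are the SE, colours the call at an adjusted p under 0.05, and the dotted line is the median of all genes, 0.05. Tnfsf4 has the widest bar and the highest value among ligands, and Tnfrsf4 and Tnfrsf9 the highest values among receptors.

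The death ligands moved in opposite directions. Fasl, the ligand with which cytotoxic lymphocytes kill Fas-bearing cells, was measured at 11.0, 5.47, 6.20, 8.93 and 4.59 CPM in resting and 22.1, 15.0, 26.4, 23.5 and 23.4 CPM in graft libraries. The groups did not overlap (log2 fold change 1.62 ± 0.24, edgeR adjusted p = 8.32e-05). Fas itself was at 151 ± 31.6 and 141 ± 16.1 CPM and was not called (log2 fold change -0.10 ± 0.15, adjusted p = 0.613). Fasl was highest in pool 3. The summed natural killer cell markers were 238, 289, 538, 366 and 255 CPM in graft libraries 1 to 5. They were also highest in pool 3 but lowest in pool 1, whereas Fasl was lowest in pool 2. The part of those cells in the Fasl level was not tested.

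Tnfsf10 (TRAIL) was measured at 52.8, 43.1, 36.3, 47.5 and 37.3 CPM in resting and 22.7, 10.5, 13.5, 11.7 and 16.9 CPM in graft libraries. All graft libraries lay below all resting ones, 2.88 times lower in the fit (log2 fold change -1.52 ± 0.20, edgeR adjusted p = 3.14e-05). Its death receptor Tnfrsf10b (DR5) was lower as well, at 7.41 ± 2.12 and 3.32 ± 1.41 CPM, with some overlap (log2 fold change -1.16 ± 0.31, adjusted p = 0.00704). Tnfrsf26, a mouse receptor related to the TRAIL decoy receptors, went from 15.4 ± 2.65 to 31.2 ± 8.51 CPM with no overlap (log2 fold change 1.01 ± 0.19, adjusted p = 0.000523). Tnfrsf21 (DR6) was at 76.9 ± 10.7 and 78.1 ± 17.0 CPM and was not called (log2 fold change 0.02 ± 0.16, adjusted p = 0.924).

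Of the 4 genes of the B cell survival branch, edgeR and DESeq2 each called 0, and 1 had an unadjusted edgeR p under 0.05. Tnfsf13b (BAFF) was at 12.0 ± 1.73 and 12.2 ± 3.70 CPM (log2 fold change 0.03 ± 0.21, adjusted p = 0.917) and Tnfsf13 (APRIL), a plasma cell survival factor, at 4.30 ± 1.63 and 6.66 ± 2.95 CPM (log2 fold change 0.65 ± 0.32, adjusted p = 0.117). The receptor Tnfrsf13b (TACI) was at 19.6 ± 5.00 and 28.0 ± 7.34 CPM (log2 fold change 0.52 ± 0.20, adjusted p = 0.0531), and Tnfrsf13c (BAFF receptor), a B cell gene, at 9.97 ± 3.34 and 8.36 ± 1.74 CPM (log2 fold change -0.26 ± 0.23, adjusted p = 0.388). Leaving out resting library 4 or graft library 5 brought a call for Tnfsf13 (adjusted p = 0.0333 and 0.0346) and for Tnfrsf13b (adjusted p = 0.0149 and 0.0189). Tnfrsf13b was also called without graft library 4 (adjusted p = 0.0278), and both were with no filter on low counts. The summed B and plasma cell markers were 717 to 1019 CPM in resting and 519 to 823 CPM in graft libraries, with 7 of 9 lower and 1 higher. The ratios of Tnfsf13b to Tnfsf13 and of Tnfrsf13b to Tnfrsf13c differed by -0.58 and 0.73 on the log2 scale (exact two-sided permutation tests, adjusted p = 0.139 for each).

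The TWEAK branch, which acts in tissue repair, had 1 lower gene. Tnfrsf12a (FN14), the receptor, was measured at 47.5, 31.5, 33.7, 37.1 and 39.6 CPM in resting and 29.6, 35.9, 27.8, 22.1 and 16.1 CPM in graft libraries. The groups overlapped (log2 fold change -0.53 ± 0.19, edgeR adjusted p = 0.0374), and the call was lost on leaving out any of 6 single libraries (resting 1, 4 or 5, graft 3, 4 or 5), with adjusted p from 0.0598 to 0.0974. The ligand Tnfsf12 (TWEAK) was at 6.97 ± 1.11 and 4.40 ± 1.85 CPM and was not called (log2 fold change -0.65 ± 0.27, adjusted p = 0.0629); without graft library 2 it was lower (-0.87, adjusted p = 0.0132), as it was under library totals alone (-0.85, adjusted p = 0.0179) and by DESeq2 (-0.68, adjusted p = 0.0336). Tnfsf12 and Tnfsf13 are adjacent on chromosome 11 and share 48.3% and 60% of their exonic bases with the read-through gene Tnfsfm13, so their counts are uncertain.

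The 21 known ligand and receptor pairs of the list can be read together. In 4 pairs both partners were higher (Tnf with Tnfrsf1a, Tnfsf4 with Tnfrsf4, Tnfsf9 with Tnfrsf9 and Tnfsf11 with Tnfrsf11a), and in 1 pair both were lower (Tnfsf10 with Tnfrsf10b). In 4 pairs the ligand was higher and the receptor not called, and in 3 the receptor was higher and the ligand not called. No pair had partners called in opposite directions. Only the pairs with both partners called could have shown this, and 16 members were higher against 4 lower, so few could be opposite. Some genes, such as Tnf and Tnfsf14, are in more than 1 pair. Agreement between partners was not tested. Tnf with Tnfrsf1a is the pair that rests on graft pools 1 and 2, and in Tnfsf4 with Tnfrsf4 the ligand passed the filter only through the graft libraries. In Tnfsf11 with Tnfrsf11a the ligand also needed graft libraries to pass it.

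**Figure D3:**
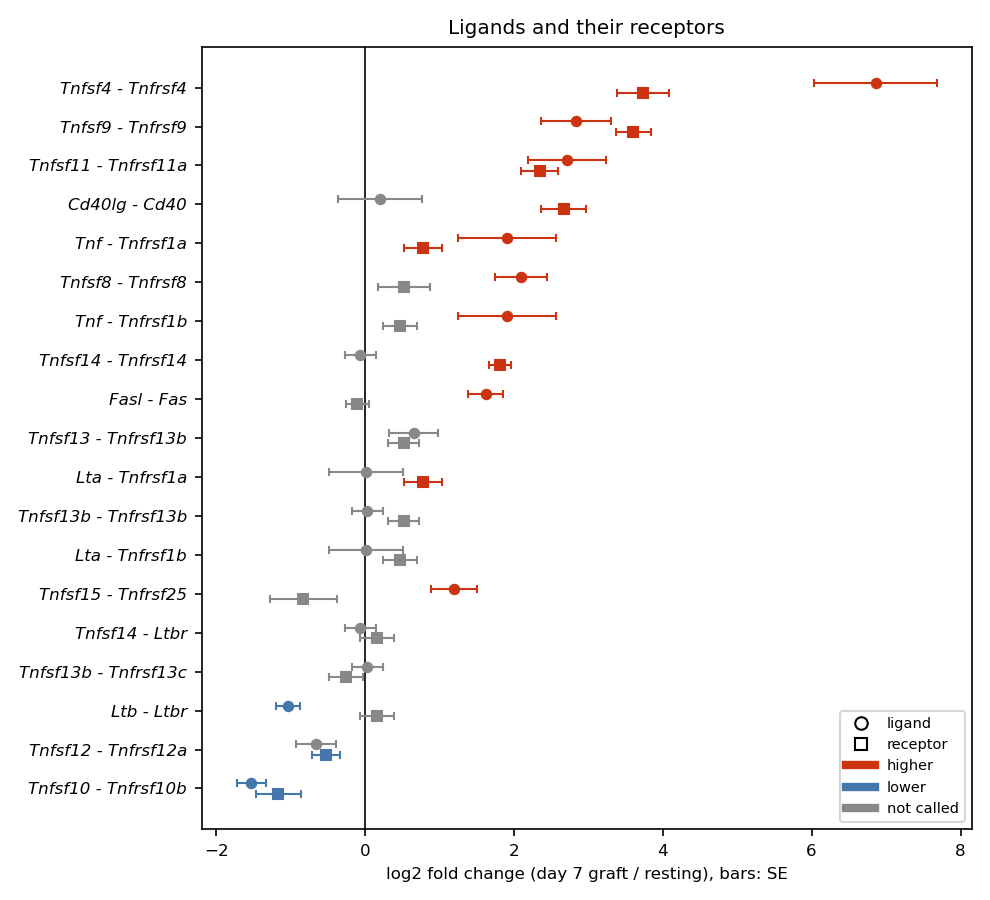
Log2 fold change, graft over resting, of the ligand (circle) and the receptor (square) of each of the 19 pairs in which both were tested, with SE bars and colours for the call at an adjusted p under 0.05; rows are ordered by the mean of the 2 values. Tnfsf4 with Tnfrsf4 is at the top and Tnfsf10 with Tnfrsf10b at the bottom.

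Divided by exonic length, so that genes can be compared, Tnfrsf1b was the most abundant member in the resting libraries at 160.3 ± 19.2 CPM per kilobase. It was followed by Ltb (139.7 ± 32.0), Tnfrsf1a (97.1 ± 19.2), Tnf (79.1 ± 19.7) and Fas (73.1 ± 15.3). Each of these overlapped the next in order within 1 SD. In the graft the same 5 genes held the first 5 places in another order: Tnf (296 ± 345 CPM per kilobase), Tnfrsf1b (222 ± 93.8), Tnfrsf1a (166 ± 66.3), Ltb (68.4 ± 9.17) and Fas (68.2 ± 7.82), where the first 3 overlapped within 1 SD, as did Ltb with Fas. The first place of Tnf came from pools 1 and 2: without pool 1 its mean was 155.5 CPM per kilobase, below the 182.6 of Tnfrsf1b, and in pools 3, 4 and 5 it was at 82.3, 57.3 and 79.6, below both receptors in each. Cd40 came next at 38.4 ± 16.9 CPM per kilobase, from place 13 in resting, then Tnfrsf18 (37.5 ± 8.63) and Tnfrsf9 (36.3 ± 13.4, from place 20). Tnf made up 25.9% to 31.1% of the summed ligand level per kilobase in resting libraries. In the graft libraries it made up 82.5%, 70.4%, 36.7%, 30.1% and 32.5%, so that pools 1 and 2 again stood apart.

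The graft pools did not rank alike for all genes that were higher. Pool 5 had the highest value for 7 of the 16 (Tnfsf4, Tnfsf8, Tnfsf11, Cd27, Tnfrsf4, Tnfrsf9, Tnfrsf18), whereas it had the highest value for 16.0% of all genes that were higher. It also had the highest summed T cell markers (1127 CPM), regulatory T cell markers (191 CPM), eosinophil markers (4274 CPM) and dendritic cell markers (317 CPM). Pools 1 and 2 had the highest values of another 7 (Tnf, Tnfrsf1a and Tnfrsf26 in pool 1; Tnfsf9, Tnfsf15, Cd40 and Tnfrsf11a in pool 2), against 26.2% and 33.6% of all genes that were higher, so the count for these pools is not above that of all genes. Pool 2 had the highest summed monocyte and macrophage markers (10018 CPM) and pool 1 the highest summed neutrophil markers (10784 CPM). Fasl was highest in pool 3 and Tnfrsf14 in pool 4. These are descriptions of 5 pools, and the part of the other cell types was not tested.

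**Figure D4:**
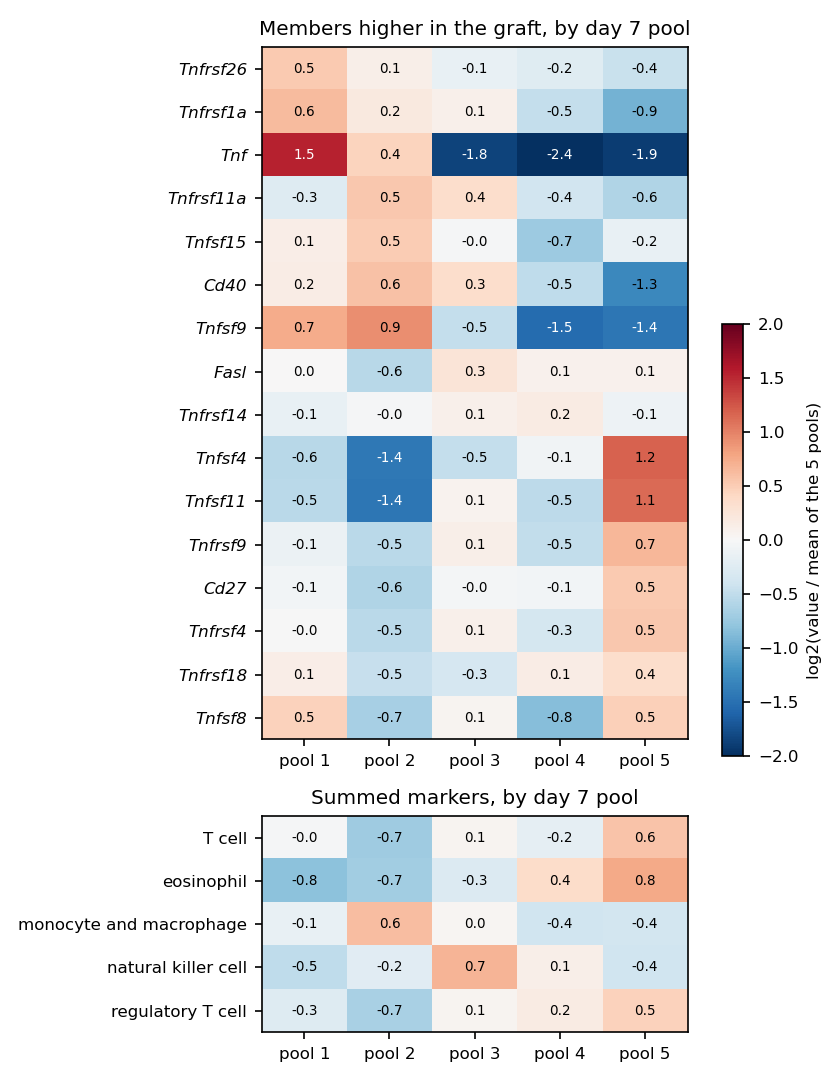
Each of the 16 genes that were higher in the graft (top) and the summed markers of 5 cell types (bottom) in the 5 graft pools, as log2 of the value over the mean of the 5 pools; red is above and blue below that mean. Tnf and Tnfsf9 are above their mean in pools 1 and 2 only. Tnfsf4, Tnfsf11 and Tnfrsf9 are highest in pool 5, where the T cell, regulatory T cell and eosinophil sums are also highest.

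Genes of the pathway outside the 36 were taken from 5 lists, 49 genes tested, of which 22 were higher (44.9%, against 23.3% of all genes) and 7 lower (14.3%, against 23.4%), with a median log2 fold change of 0.31. Read list by list, calls in either direction came to 56.25% of the adaptors and kinases. They came to 50% of both the ubiquitin enzymes and the death branch, near the 46.7% of all genes. The share was larger in the short lists, 80% of the 5 sheddases and their regulators and 83.3% of the 6 further superfamily genes. Among 16 receptor adaptors and kinases 8 were higher and 1 lower (median 0.32): Traf1, an adaptor induced by NF-kappaB, went from 148 ± 22.0 to 289 ± 73.3 CPM (log2 fold change 0.96 ± 0.17, edgeR adjusted p = 0.000417), Traf4 had a log2 fold change of 1.17, Map3k7 (TAK1) of 0.71 and Chuk (IKK alpha) of 0.58. Among 12 ubiquitin ligases and deubiquitinases 6 were higher (median 0.45). Tnfaip3 (A20), which removes ubiquitin chains and limits NF-kappaB signalling, was measured at 584 ± 67.7 and 1325 ± 559.8 CPM (log2 fold change 1.18 ± 0.22, adjusted p = 0.000648). The A20-binding Tnip3 had a log2 fold change of 2.43, the linear chain hydrolase Otulin of 1.41 and the linear chain assembly subunit Sharpin of 0.89.

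Among 10 genes of the death branch 5 were higher (median 0.47). The necroptosis genes Ripk3 and Mlkl had log2 fold changes of 1.45 and 1.47, and the initiator caspase gene Casp8 of 0.97. Of 5 sheddases and their regulators 2 were higher and 2 lower (median 0.12). Adam17, the enzyme that cuts TNF from the membrane, went from 101 ± 11.5 to 237 ± 77.4 CPM (log2 fold change 1.23 ± 0.20, edgeR adjusted p = 0.000248) and Adam10 had a log2 fold change of 0.55. Timp3, an inhibitor of Adam17 made by stromal and endothelial cells, went from 322 ± 31.7 to 31.2 ± 16.6 CPM (log2 fold change -3.36 ± 0.41, adjusted p = 2.21e-05), beside the lower endothelial markers given above. Summed stromal markers were 481 to 598 CPM in resting and 135 to 682 CPM in graft libraries (4 of 9 lower, 2 higher). The part of either cell type in the Timp3 level was not tested. Of 6 further superfamily genes 1 was higher, Tnfrsf23 (1.02), and 4 were lower, Relt (-0.58) and Tnfrsf11b among them; the calls of Tnfrsf23 and Relt were lost under 11 and 9 of 19 alternative settings.

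Upstream sequences were at hand for 28 of the 36 genes, and 13 of them held at least 1 of the 4 motifs in the 250 bases before a start site, against 21.6% of 27025 genes. A gamma-activated site was found in 8 of the 28 (28.6%, against 8.13% of all genes), an AP-1 site in 6 (21.4%, against 7.82%), a kappaB motif in 3 (10.7%, against 4.46%) and an interferon-stimulated response element in 3 (10.7%, against 3.46%). Of the 12 genes with a sequence that were higher, 3 held a gamma-activated site and 1 an AP-1 site, and of the 12 that were not called, 4 and 5. Unlike the sequences shown above, these counts use the full 250 bases, annotated exons included. The gamma-activated sites of Tnfrsf18 and Tnfrsf1a and the kappaB and AP-1 matches of Tnfrsf9 lie in such exonic bases. So do the interferon-stimulated response elements of Tnfrsf14 and Tnfsf13b and the AP-1 sites of Tnfsf13b and Tnfsf13.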

How the data were processed

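Eosinophil RNA from pooled lungs was sequenced, and the values used are whole-number counts per gene as deposited by the authors. Per the submitters' processing notes, bcl2fastq 2.17, Trimmomatic 0.36, STAR 2.5.2b, featureCounts from Subread 1.5.2 and the build mm10 were used; the sources used here give no settings, strand or annotation release. 10 further columns, headed by bare numbers, matched no label and were not used. The members and lists were chosen with earlier results of these data known.

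The 10 libraries were joined on 49315 identifiers, and 49056 of them were given symbols from GENCODE M21. Genes were kept with filterByExpr, scaled by TMM and tested with edgeR 4.0.16 (robust quasi-likelihood F test, group only, adjusted over 16500 genes); the SE is the log2 fold change over the root of F. CPM are TMM-scaled. Ratios used counts + 1 and exact permutation tests. Other fits used DESeq2 1.42.0, other scalings and filters, a replicate block and each library left out. All members are described; of each pathway list up to 4 called genes with the largest change and at least 20 CPM were named, and Tnfrsf11b; 1 gene that this rule names is not reported here. Intervals cover counting error only, and p-values set the difference of the groups against the spread between pools. On simulated data of this design the fit called 50 of 50 genes raised and 41 of 43 lowered by 2 on the log2 scale. It called 30 and 29 of 50 changed by 1, and 3 of 15997 unchanged genes. Far fewer genes changed there than were called in the data, and the counts were drawn from the fitted model. These rates therefore need not hold for the data.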

Additional observations from a re-analysis of the deposited data

Results flagged for a closer look

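In 4 of 68 sets of 5 libraries, 1 library lay far from the other four, by a gap over 0.71 of the range (chance gives about 1 in 20). All 4 were resting sets. Tnfsf4 was at 0.199 CPM in resting library 2 and at 0 in the others. Tnfsf11 was at 0.199 CPM in the same library, the lowest, with the next at 1.33 CPM. In resting library 4, Tnfsf13 was at 7.17 CPM, with the next at 3.92 CPM, and Cd40 at 27.0 CPM, with the next at 20.1 CPM. The Tnf values of graft libraries 1 and 2 were not among them, since 2 libraries were high together.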

How the results depend on the processing

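Under 19 alternative settings, 17 of the 20 called members kept their call in each; Tnf, Tnfrsf1a and Tnfrsf12a lost it in at least 1, as given above, and 5 of the 14 uncalled members gained one in at least 1. The value of Tnf reversed to -0.095 without graft replicates 1 and 2, a setting chosen after seeing the data, under which the lower pathway genes numbered 4 in place of 7. Library totals alone gave 2495 higher genes, and no filter on low counts 6715 lower genes among 42249 tested. Same-numbered libraries of the 2 groups deviated together in only 1 of 5 pairs (correlation over 0.1, range -0.188 to 0.12). Differently numbered libraries ranged from -0.22 to 0.181, so this check showed no pairing by number and could not exclude one. With a replicate block 3317 genes were higher and 3636 lower, Tnf lost its call (1.03, adjusted p = 0.17), and the Tnfrsf14 to Ltbr ratio (1.73) had an adjusted p of 0.156; 5 pairs can give no unadjusted p under 0.0625, so this test could not have reached the threshold. The cause of these differences was not tested. At 6666577 counts, the shallowest library, 3 counts are 0.45 CPM, which limits Tnfsf4, Tnfsf18 and Cd70. Tnfsf11 in resting library 2 and Cd40lg in graft library 2 also lay under 3 counts, at 2 each.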
